A study of Homo sapiens with 4 samples.

Results

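The JAK kinases and STAT factors were followed here as 9 genes, the kinases JAK1, JAK2 and JAK3 and the transcription factors STAT2, STAT3, STAT4, STAT5A, STAT5B and STAT6. They were taken by symbol from the 58037 genes of the count table, as members of 2 gene families and with earlier results of these data known. RNA-Seq libraries came from OCI-AML3, an established human AML cell line with heterozygous NPM1 and DNMT3A mutations and a homozygous NRAS mutation, so every library carries these alleles apart from what the editing removed. Cells were transfected with sgRNA Ctrl, labelled sgNeg (n = 2), or with sgNPM1A, a CRISPR guide against mutant NPM1 (n = 2), and harvested on day 3, given as 72 hours. The comparison asks how the JAK and STAT transcripts differ when mutant NPM1 is targeted, in a single line and in cells harvested in bulk, where fewer cells of a type and less RNA per cell cannot be told apart.

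JAK kinases sit on the cytoplasmic tails of cytokine receptors that have no kinase activity of their own. When a cytokine joins the receptor chains, the kinases phosphorylate each other and the receptor, STAT factors dock there, are phosphorylated in turn, pair up and enter the nucleus. In myeloid cells this route carries the signals of G-CSF, GM-CSF, IL-3 and IL-6, largely through STAT3 and STAT5, and STAT2 serves the interferon response as part of ISGF3, the complex it forms with IRF9 and a STAT partner. Signalling runs through phosphorylation, so a transcript level is not a measure of JAK or STAT activity.

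Library totals lay between 25069484 and 28276391 counts, and 3 counts, the floor used here, corresponded to between 0.108 and 0.118 CPM (counts scaled to the TMM-normalized library size). Counts of NPM1 itself, with both alleles summed, were 33522 and 35881 with sgRNA Ctrl and 33154 and 31428 with sgNPM1A, a log2 fold change of -0.22 (SE 0.0688, edgeR adjusted p = 0.0360) that was under the fold threshold. The table does not separate the mutant from the wild-type allele, so the editing could not be read from these counts. Markers of myeloid cells, which the line is labelled as, were present, and their summed level was 1251 and 1248 CPM with sgRNA Ctrl and 4042 and 4758 CPM with sgNPM1A, with 6 of 8 markers higher. LYZ alone went from 270.6 and 215.1 to 2643 and 3367 CPM, and the other 7 markers summed to 980.7 and 1033 CPM with sgRNA Ctrl and 1399 and 1391 CPM with sgNPM1A. Lymphoid markers summed to between 4.05 and 5.86 CPM, with CD3E, CD3D and MS4A1 at 0, and erythroid and platelet markers to between 1.98 and 2.74 CPM, with HBB at 0. The stromal and epithelial list summed to 29.7 and 31.5 CPM with sgRNA Ctrl and 13.7 and 10.1 CPM with sgNPM1A, with EPCAM at 0 and 2 of 6 markers lower. The rise in myeloid markers accompanies every result given here, and its part in them was not tested.

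A gene was called higher or lower when the quasi-likelihood test of edgeR gave an adjusted p under 0.05 and the log2 fold change was at least 0.32 in size, the fold threshold of the study's methods. Of the 9 genes, 8 had enough counts to be tested. JAK2, STAT2, STAT3 and STAT5B were higher with sgNPM1A, and JAK3 was lower. Over all 15718 tested genes 10.5% were called higher and 10.3% lower, against 4 and 1 of these 8. The median log2 fold change was 0.19 over the 8 genes and 0.00 over all tested genes. The conditions did not overlap for 7 of the 8, where 63.1% of all tested genes also showed no overlap. With 2 libraries against 2 an exact permutation test of a single gene cannot go below p = 0.333, so each call rests on the spread that edgeR shares between genes.

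**Figure D1:**
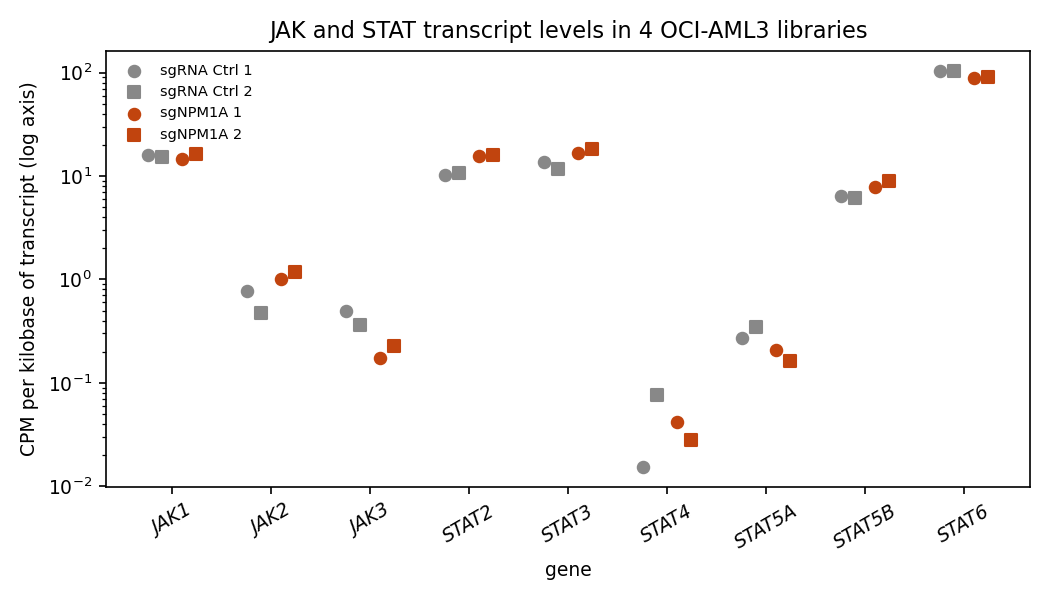
Level of each gene in CPM per kilobase of its MANE transcript, on a log axis, in the 2 sgRNA Ctrl (grey) and 2 sgNPM1A (orange) libraries. STAT6 stands above the other genes in all 4 libraries and STAT4 below them.

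Scaled to transcript length, the 9 genes spanned more than 3 orders of magnitude in CPM per kilobase. STAT6, which serves IL-4 and IL-13, had the highest level, with a mean of 104.5 CPM per kilobase in the sgRNA Ctrl libraries. JAK1, the kinase shared by most of these receptors, followed at 15.7 CPM per kilobase, then STAT3 at 12.6, STAT2 at 10.4 and STAT5B at 6.30. JAK2 at 0.620, JAK3 at 0.431, STAT5A at 0.310 and STAT4 at 0.0454 CPM per kilobase made up the lower end. Of these neighbours only JAK2 and JAK3 overlapped between their 2 sgRNA Ctrl libraries, apart from STAT4, whose counts were near the floor.

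With sgNPM1A the middle of this order was different. STAT3 had a mean of 17.5 CPM per kilobase and STAT2 of 15.7, next to JAK1 at 15.4, and the values of STAT2 lay within those of JAK1. JAK2 at 1.09 CPM per kilobase no longer overlapped JAK3 at 0.200, whereas JAK3 and STAT5A at 0.186 now did. STAT6 remained first at 89.2 CPM per kilobase.

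JAK2 carries the signals of erythropoietin, thrombopoietin, growth hormone, prolactin and the GM-CSF family, and also serves the G-CSF receptor. The gene lies on chromosome 9 at 4984390 to 5129948 on the plus strand (GRCh38, as for all positions). Its counts were 137 and 86 with sgRNA Ctrl and 199 and 228 with sgNPM1A, or 5.39 and 3.32 against 7.14 and 8.21 CPM. Both sgNPM1A libraries were above both control libraries, which differed more from each other than the sgNPM1A libraries did. JAK2 was higher by a log2 fold change of 0.82 (SE 0.20, edgeR adjusted p = 0.0115), or 1.76-fold. The call was lost without sgRNA Ctrl replicate 2, the lower of the controls, when the log2 fold change was 0.51 (edgeR adjusted p = 0.0625).

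JAK3, the kinase bound to the common gamma chain of the IL-2, IL-4, IL-7, IL-9, IL-15 and IL-21 receptors, moved the other way. It lies on chromosome 19 at 17824782 to 17847982 on the minus strand, and its counts were 68 and 51 with sgRNA Ctrl and 26 and 34 with sgNPM1A, or 2.68 and 1.97 against 0.933 and 1.23 CPM. Each sgNPM1A library was below each control library. JAK3 was lower by a log2 fold change of -1.10 (SE 0.26, edgeR adjusted p = 0.0104). At such counts 1 library decided the call: without sgRNA Ctrl replicate 1 the log2 fold change was -0.87 (edgeR adjusted p = 0.0710), and without sgNPM1A replicate 1 it was -0.92 (edgeR adjusted p = 0.0583). The ratio of JAK2 to JAK3 in CPM was 2.02 and 1.69 in the sgRNA Ctrl libraries and 7.65 and 6.71 in the sgNPM1A libraries.

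JAK1 on chromosome 1 at 64833229 to 65067746, minus strand, had 2086 and 2007 counts with sgRNA Ctrl and 2053 and 2303 with sgNPM1A. In CPM this was 82.1 and 77.5 against 73.7 and 82.9, so that the sgNPM1A libraries fell on both sides of the controls. The log2 fold change was -0.03 (SE 0.08, edgeR adjusted p = 0.839). JAK1 made up between 92.1% and 94.8% of the CPM per kilobase summed over the 3 kinases in every library, so the sum stayed at 17.4 and 16.1 with sgRNA Ctrl and 15.7 and 17.7 CPM per kilobase with sgNPM1A. The share of JAK2 was 4.41% and 2.94% with sgRNA Ctrl against 6.50% and 6.61% with sgNPM1A, and the share of JAK3 was 2.86% and 2.28% against 1.11% and 1.29%.

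**Figure D2:**
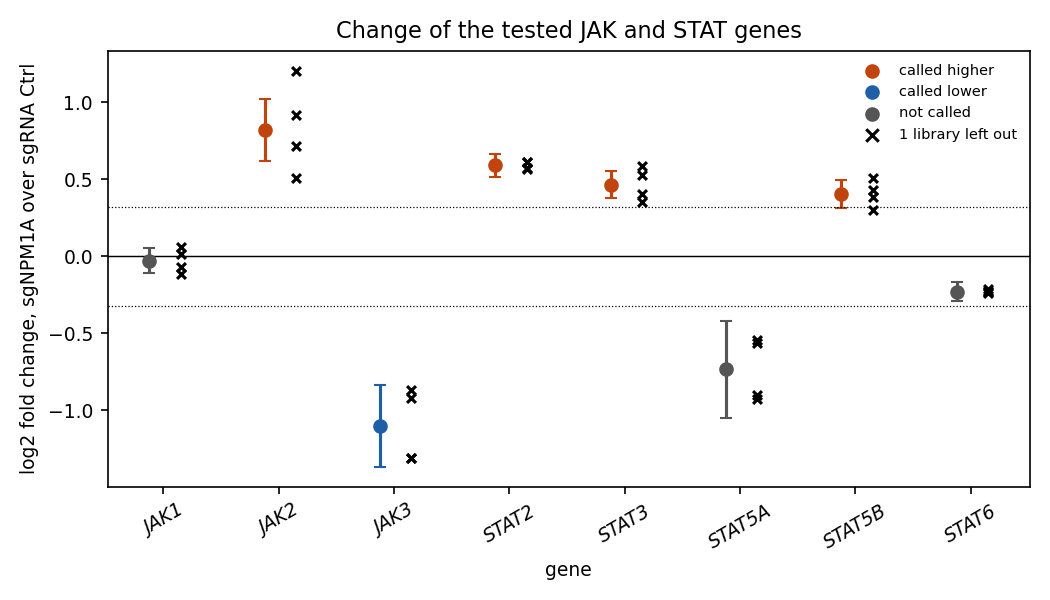
Log2 fold change of the 8 tested genes, sgNPM1A over sgRNA Ctrl, as circles with SE bars, with crosses for the 4 fits that each leave out 1 library and dotted lines at the fold threshold. STAT2 lies between 0.57 and 0.62 in these 4 fits, JAK2 between 0.51 and 1.21.

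STAT2 gave the smallest adjusted p of the 9 genes. It is the STAT that binds IRF9 after type I interferon, and lies on chromosome 12 at 56341597 to 56360107 on the minus strand. Its counts were 1149 and 1207 with sgRNA Ctrl and 1905 and 1946 with sgNPM1A, or 45.2 and 46.6 against 68.3 and 70.1 CPM. The libraries of each condition lay close together and the conditions stood well apart. STAT2 was higher by a log2 fold change of 0.59 (SE 0.07, edgeR adjusted p = 0.00014), or 1.51-fold. Among all tested genes the patterns nearest to that of STAT2 over the 4 libraries were those of PPP1R21, PDXK and PDHA1, whose centred log2 CPM differed from it by a root mean square of 0.0126, 0.0141 and 0.0151.

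STAT3, the factor of the IL-6 and G-CSF receptors, was also higher. Its counts were 1712 and 1477 with sgRNA Ctrl and 2294 and 2487 with sgNPM1A, or 67.4 and 57.0 against 82.3 and 89.6 CPM. The log2 fold change was 0.47 (SE 0.09, edgeR adjusted p = 0.00293), or 1.38-fold, and every library with sgNPM1A was above every control library. STAT3 lies on chromosome 17 at 42313324 to 42388442 on the minus strand, in a row with STAT5A and STAT5B.

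STAT5B and STAT5A are close paralogs that act downstream of the GM-CSF, IL-3, erythropoietin, growth hormone and prolactin receptors. STAT5B, at 42199177 to 42288370 on the minus strand of chromosome 17, had 827 and 815 counts with sgRNA Ctrl and 1099 and 1260 with sgNPM1A, or 32.5 and 31.5 against 39.4 and 45.4 CPM. It was higher by a log2 fold change of 0.41 (SE 0.09, edgeR adjusted p = 0.00707), or 1.33-fold. Without sgNPM1A replicate 2, the higher of its condition, the log2 fold change was 0.30 (edgeR adjusted p = 0.142) and the call was lost.

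STAT5A was far scarcer, at 42287439 to 42311943 on the plus strand. Its counts were 26 and 34 with sgRNA Ctrl and 22 and 17 with sgNPM1A, or 1.02 and 1.31 against 0.789 and 0.612 CPM. The sgNPM1A libraries were the lower ones, without overlap, at a log2 fold change of -0.73 (SE 0.32), but the unadjusted p of 0.0402 became 0.114 after adjustment in edgeR, so no change was called. The annotated ends of STAT5A and STAT5B overlap by 932 bases on opposite strands, and 1380 bases separate STAT5A from STAT3. STAT5B and STAT5A also share sequence: 507 of the 50-base words of their transcripts are common to both, 7.56% of those of STAT5A. Reads of the abundant STAT5B could therefore have been counted on STAT5A or dropped from both. The values of STAT5A are uncertain to that extent. JAK1 shared 6.76% of such words with other genes, and STAT5B 5.46%. Exons of JAK1, STAT4, STAT5A, STAT5B and STAT6 overlap those of other genes.

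STAT6, on chromosome 12 at 57095408 to 57111362 on the minus strand, was the most abundant STAT transcript. Its counts were 10504 and 10747 with sgRNA Ctrl and 9753 and 9912 with sgNPM1A, or 413.2 and 415.0 against 349.9 and 357.0 CPM. The log2 fold change was -0.23 (SE 0.06, edgeR adjusted p = 0.0211) with no overlap between conditions. With the replicate number as a block in the fit, the log2 fold change was again -0.23 but the edgeR adjusted p was 0.110. An adjusted p under 0.05 at any fold was given to 26.0% of all tested genes. The fold of STAT6 was under the threshold, so it was not called. STAT4, the factor of IL-12 signalling in lymphocytes, lies on chromosome 2 at 191029576 to 191151596 on the minus strand and had 1, 5, 3 and 2 counts in the 4 libraries in that order. It was too scarce to test, and a difference was not detectable at this depth.

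**Figure D3:**
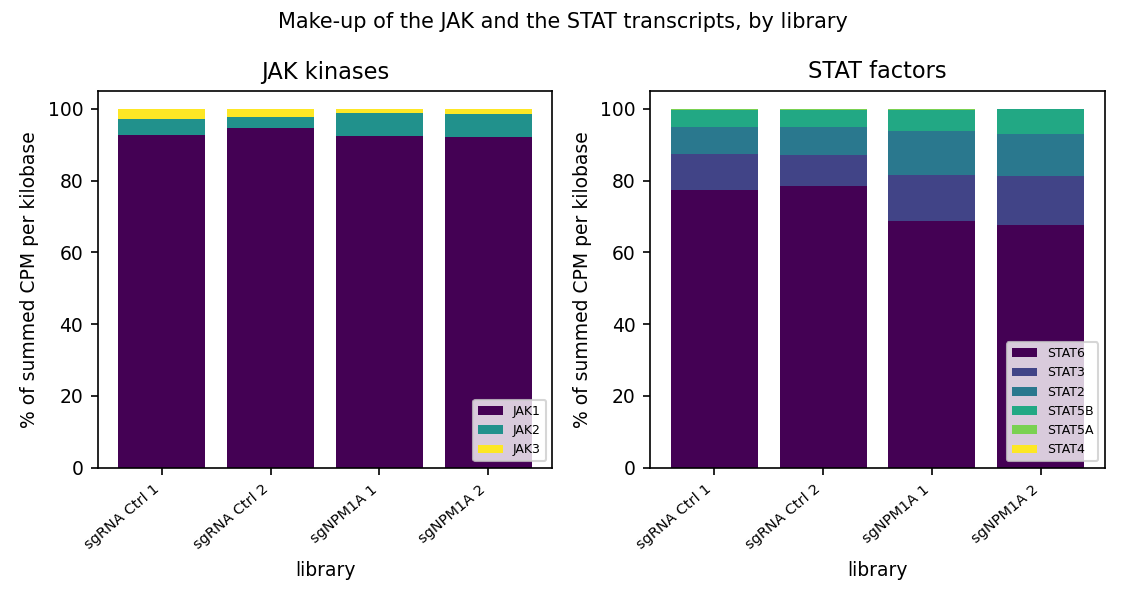
Share of each gene in the CPM per kilobase summed over the 3 JAK kinases (left) and the 6 STAT factors (right), in % per library. JAK1 holds over 92% of the JAK sum in every library, while STAT6 holds 77.3% and 78.4% of the STAT sum with sgRNA Ctrl and 68.7% and 67.6% with sgNPM1A.

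Summed over the 6 STAT genes, the level was 134.9 and 133.5 CPM per kilobase with sgRNA Ctrl and 128.5 and 133.3 with sgNPM1A. Within this sum the share of STAT2 was 7.60% and 7.93% with sgRNA Ctrl and 12.1% and 11.9% with sgNPM1A. STAT3 held 10.2% and 8.68% against 13.0% and 13.7%, and STAT5B 4.75% and 4.64% against 6.04% and 6.70%. The make-up of the STAT transcripts thus differed between the conditions, with a smaller share of STAT6 and larger shares of STAT2, STAT3 and STAT5B in both sgNPM1A libraries.

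Sequence before the transcription start was looked at because STAT factors bind DNA through short motifs. Of their own genes STAT2, STAT3 and STAT5B were called higher, while STAT5A and STAT6 had negative log2 fold changes. The letters searched, on both strands, were TTCNNNGAA, the GAS motif of STAT dimers, and GAAANNGAAA, the core of the ISRE bound by ISGF3. Among 35116 RefSeq windows of 250 bases (GRCh38.p14), 6.57% held the first and 3.02% the second. None of the 17 windows of the 9 genes held either one. The 120 bases before the start of each called gene are shown 5′ to 3′ on the strand of the gene, in lower case throughout since neither motif is in them.
STAT2, chr12:56360108-56360227, minus strand: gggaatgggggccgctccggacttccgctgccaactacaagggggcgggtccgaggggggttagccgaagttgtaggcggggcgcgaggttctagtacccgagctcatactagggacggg
STAT3, chr17:42388443-42388562, minus strand: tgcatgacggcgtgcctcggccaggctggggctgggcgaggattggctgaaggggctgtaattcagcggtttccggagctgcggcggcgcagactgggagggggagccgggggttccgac
STAT5B, chr17:42276392-42276511, minus strand: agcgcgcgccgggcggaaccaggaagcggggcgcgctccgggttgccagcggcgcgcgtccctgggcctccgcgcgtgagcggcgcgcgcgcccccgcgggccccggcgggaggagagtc
JAK2, chr9:4984270-4984389, plus strand: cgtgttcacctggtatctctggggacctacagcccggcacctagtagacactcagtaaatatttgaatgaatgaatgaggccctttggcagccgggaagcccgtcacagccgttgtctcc
JAK3, chr19:17847983-17848102, minus strand: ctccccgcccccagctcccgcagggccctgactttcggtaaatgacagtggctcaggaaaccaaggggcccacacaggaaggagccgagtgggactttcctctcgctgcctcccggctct
The STAT5B stretch precedes a start inside the annotated span of that gene, and the others precede the outermost annotated start.

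Around the 9 genes, the receptors, ligands, inhibitors, adapters and target genes of the pathway were read from the same fit. Of 149 listed genes 148 were found and 110 tested, with 13 higher and 29 lower with sgNPM1A and a median log2 fold change of -0.09, against 10.5% higher and 10.3% lower over all tested genes. The ISGF3 target list alone held 12 of the 29 lower genes. The lists were drawn up with earlier results of these data known, and a few genes stand in more than 1 of them.

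**Figure D4:**
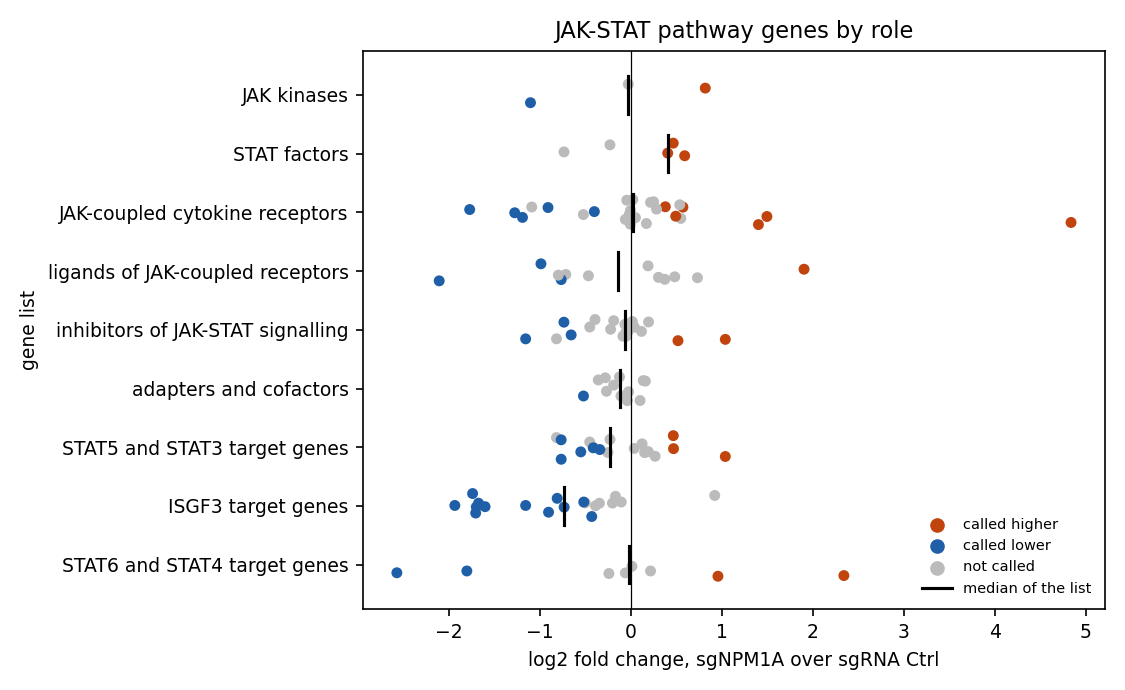
Log2 fold change, sgNPM1A over sgRNA Ctrl, of every tested gene in each list, with genes called higher in orange, called lower in blue and not called in grey, and a bar at the median of the list. The ISGF3 target genes have 12 called lower and 0 called higher of 19, with a median of -0.73, while called receptors lie on both sides of 0.

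Of 39 receptor chains 27 were tested, 6 of them higher, 5 lower and 16 not called, with a median log2 fold change of 0.02 (all tested genes: 10.5% higher, 10.3% lower). CSF3R, the G-CSF receptor of granulocytic cells and also one of the myeloid markers, had 88.0 and 92.2 CPM with sgRNA Ctrl and 233.6 and 243.1 CPM with sgNPM1A. Its log2 fold change was 1.40 (SE 0.0671, edgeR adjusted p = 1.35e-07). PRLR, the prolactin receptor, which signals through JAK2 and STAT5, was close to the floor in the controls at 0.354 and 0.425 CPM. With sgNPM1A it stood at 9.44 and 13.1 CPM, at a log2 fold change of 4.84 (edgeR adjusted p = 4.19e-07). Having 9 and 11 counts in the controls, PRLR passed the count filter only through sgNPM1A. When at least 10 counts were required in every library, 5 receptors were called higher and 6 lower. IL10RA, the ligand-binding chain of the IL-10 receptor, rose from 6.49 CPM in each control library to 16.9 and 19.7 CPM (edgeR adjusted p = 7.58e-06). On the log2 scale EPOR, the erythropoietin receptor, rose by 0.57 and IL6R, the IL-6 binding chain, by 0.38. IL11RA, the IL-11 binding chain, rose by 0.49 (edgeR adjusted p = 0.0272). The conditions did not overlap for any of these 6 receptors, nor for 20 of the 27 tested receptors and 63.1% of all tested genes.

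Of the 5 lower receptors, IL7R, the IL-7 receptor chain, had 26.7 and 30.5 CPM with sgRNA Ctrl and 9.22 and 7.53 CPM with sgNPM1A, at a log2 fold change of -1.77 (edgeR adjusted p = 1.95e-06). IL15RA, which presents IL-15, fell by 1.28 on the log2 scale. The other tested chains of JAK3-coupled receptors were not called, and are named after their values were seen: IL2RG, the common gamma chain that JAK3 binds, had a log2 fold change of 0.55 with no overlap (edgeR adjusted p = 0.150), IL4R of 0.22 and IL21R of 0.00. OSMR, the oncostatin M receptor chain, had 94.2 and 93.9 CPM against 44.7 and 37.7 CPM, a log2 fold change of -1.19 (edgeR adjusted p = 3.08e-06). GHR, the growth hormone receptor, and IL12RB1, a chain of the IL-12 and IL-23 receptors, had log2 fold changes of -0.91 and -0.40 (edgeR adjusted p = 0.00521 and 0.00400). IL10RB and IL13RA1, the most abundant receptors not called, had log2 fold changes of 0.17 and -0.02.

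Some of the receptor calls depended on 1 library or on the tool. IL6R fell under the fold threshold without sgRNA Ctrl replicate 2, at a log2 fold change of 0.31. IL11RA was not called by DESeq2 (adjusted p = 0.104), nor by edgeR without sgRNA Ctrl replicate 1 or 2 or sgNPM1A replicate 1 (adjusted p = 0.0886, 0.0591 and 0.227). A further 6 receptors had no count in any library, namely IL2RA, IL23R, IL20RA, IL9R, CSF2RA and IL3RA. The last 3 lie in the pseudoautosomal regions, which the X and Y chromosomes share. Of the 45 genes of these regions only 1 has a count on the X copy, so these 3 are only listed at 0, and the IL-3 and GM-CSF receptor alpha chains were not measured here.

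Of 31 ligands 12 were tested, 1 higher and 3 lower, with a median log2 fold change of -0.14, and 11 had no count at all. Over all tested genes the shares were 10.5% higher and 10.3% lower. TSLP, a cytokine read through the IL-7 receptor chain, rose from 0.472 and 0.386 CPM to 1.51 and 1.73 CPM, a log2 fold change of 1.90 (edgeR adjusted p = 0.00114). PRL, prolactin, went the opposite way to its receptor PRLR, from 7.16 and 7.10 CPM to 1.26 and 2.05 CPM, a log2 fold change of -2.11 (edgeR adjusted p = 2.71e-05). On the log2 scale OSM, oncostatin M, fell by 0.76 (edgeR adjusted p = 0.0112), and LIF, a relative of it, fell by 0.99 (edgeR adjusted p = 0.0491). IL23A and IL12A, the most abundant ligands not called, had log2 fold changes of 0.30 and 0.19.

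The OSM and LIF calls were less firm than that of PRL. OSM had an edgeR adjusted p of 0.0658 without sgRNA Ctrl replicate 2 and 0.0813 without sgNPM1A replicate 2. LIF was not called by DESeq2 (adjusted p = 0.223), by limma (adjusted p = 0.0576) or with the RLE size factors, and its log2 fold change was -0.63 (edgeR adjusted p = 0.294) without sgRNA Ctrl replicate 1. It was also lost without sgNPM1A replicate 1 or 2 (edgeR adjusted p = 0.155 and 0.160).

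All 20 inhibitors of the pathway were tested, with 2 higher, 3 lower and a median log2 fold change of -0.06, shares near the 10.5% higher and 10.3% lower of all tested genes. CISH, a feedback inhibitor that STAT5 induces, had 12.6 and 11.9 CPM with sgRNA Ctrl and 26.0 and 24.2 CPM with sgNPM1A, at a log2 fold change of 1.04 (SE 0.100, edgeR adjusted p = 2.19e-05). CBL, a ubiquitin ligase that turns over activated receptors and kinases, was higher by 0.52 in log2 fold change (edgeR adjusted p = 0.00125), and its relative CBLB fell by 0.73 on the same log2 scale (edgeR adjusted p = 0.00386). SOCS6, of the suppressor of cytokine signalling family, fell by 0.66, and USP18, which blocks JAK1 at the interferon receptor, fell by 1.16 on that scale (edgeR adjusted p = 0.00326 and 0.00511). The phosphatases PTPN6 and PTPRC, the most abundant genes of the list, had log2 fold changes of -0.09 and -0.05 and were not called.

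CISH, OAS3 and ISG15 have their motifs shown as single target genes that moved in opposite directions. They are examples and were not picked by a rule. In CISH the first bases of the window hold 2 GAS matches and further matches follow closer to the start, 4 in all, in capitals:
CISH, chr3:50611865-50612024, minus strand: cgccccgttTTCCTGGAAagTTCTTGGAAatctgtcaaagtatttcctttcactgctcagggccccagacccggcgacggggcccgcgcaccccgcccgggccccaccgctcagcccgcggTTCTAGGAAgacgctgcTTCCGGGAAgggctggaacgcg
In OAS3 and ISG15 the capitals mark the ISRE core, with overlapping matches in ISG15 written as 1 run:
OAS3, chr12:112938314-112938473, plus strand: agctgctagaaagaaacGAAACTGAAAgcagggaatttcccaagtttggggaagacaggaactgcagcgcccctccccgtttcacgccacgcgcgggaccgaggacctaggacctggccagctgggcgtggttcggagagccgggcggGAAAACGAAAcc
ISG15, chr1:1013367-1013406, plus strand: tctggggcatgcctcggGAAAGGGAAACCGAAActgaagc
The ISRE core was in 13 of the 20 windows of the ISGF3 target list, or 65%, in a list made up of known interferon targets. In that list IFI6 held 3 matches and was not called, at a log2 fold change of -0.20. OAS1 held 0 and was called lower, at -1.93. Whether a match goes with a change was not tested. The GAS letters were in 2 of the 19 windows of the STAT5 and STAT3 target list, or 10.5%, against 6.57% of all windows, so CISH is not typical of that list. A match is a run of letters and not evidence of binding in these cells.

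The ISGF3 target genes, which type I interferon induces, were mostly lower with sgNPM1A, while STAT2 was higher. Of 19 tested genes 12 were lower, 0 were higher and 7 were not called, against 10.3% lower among all tested genes, and 18 of the 19 had a negative log2 fold change, with a median of -0.73. OAS2, an antiviral enzyme that makes oligoadenylates, had 356 and 335 counts with sgRNA Ctrl and 126 and 105 counts with sgNPM1A, at a log2 fold change of -1.70 (SE 0.140, edgeR adjusted p = 6.87e-06). OAS3, of the same enzyme family, had 10.1 and 8.88 CPM against 3.16 and 2.67 CPM, also at -1.70 (edgeR adjusted p = 1.72e-05). OAS1, the third of them, fell by 1.93 on the log2 scale (edgeR adjusted p = 0.000353). In all 3 the sgNPM1A libraries were below the controls, where 63.1% of all tested genes showed no overlap. DESeq2 called 11 lower and 0 higher, limma 12 and 0, and edgeR with at least 10 counts required in every library 9 and 0. IFIT1, IFIT2 and IFI44L had 14 and 5, 14 and 8, and 5 and 4 counts with sgNPM1A. These genes passed the count filter only through the controls, where they were higher. Fewer genes of the list were called lower when 1 library was left out.

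ISG15, a ubiquitin-like modifier, had 8.38 and 8.57 CPM with sgRNA Ctrl and 4.45 and 4.61 CPM with sgNPM1A, at a log2 fold change of -0.90 (edgeR adjusted p = 0.00061). DDX58, now named RIGI, a sensor of viral RNA, fell by 0.73 on the log2 scale, and IFIT3, which restrains viral translation, fell by 0.81 (edgeR adjusted p = 0.00301 and 0.00325). MX2 and IFI6, the most abundant genes of the list not called, had log2 fold changes of -0.17 and -0.20. RSAD2, named after its values were seen as the only member with a positive log2 fold change, had 0.92 (edgeR adjusted p = 0.149) and was not called. It was called higher without sgRNA Ctrl replicate 2, at a log2 fold change of 2.13 (edgeR adjusted p = 0.0149), with no filter on low counts (0.0490), and under the replicate block (0.0443) and the crossed block (0.0190). IRF9, the DNA-binding partner of STAT2, had 52 and 71 counts against 49 and 55, a log2 fold change of -0.36 (edgeR adjusted p = 0.287).

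**Figure D5:**
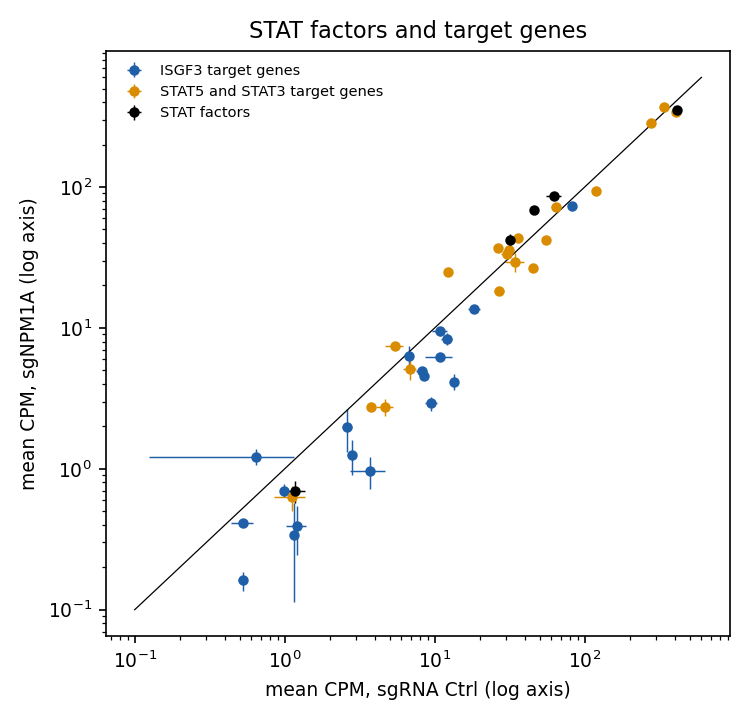
Mean CPM with sgNPM1A against mean CPM with sgRNA Ctrl, both on log axes with SD bars (n = 2 each), for the tested STAT factors (black), ISGF3 target genes (blue) and STAT5 and STAT3 target genes (yellow), and a line of equal levels. Blue points lie below the line in 18 of 19 cases, while yellow points lie on both sides.

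The target genes of STAT5 and STAT3 did not move as a block. Of 19 tested genes 3 were higher, 5 lower and 11 not called, with a median log2 fold change of -0.23, where 10.5% of all tested genes were higher and 10.3% lower. Beside CISH, VEGFA, an angiogenic growth factor, was higher by a log2 fold change of 0.47 (edgeR adjusted p = 0.00162), and BCL6, a transcriptional repressor, by 0.47 (edgeR adjusted p = 0.0372). CCND1, the cyclin of G1 phase, had 1206 and 1127 counts with sgRNA Ctrl and 780 and 709 counts with sgNPM1A, at a log2 fold change of -0.76 (edgeR adjusted p = 8.32e-05). BCL3, ID1 and JUNB, all 3 of them nuclear regulators of transcription, were lower at log2 fold changes of -0.55, -0.41 and -0.34 (edgeR adjusted p = 0.00155, 0.00330 and 0.00510), as was the cytokine OSM named above. MYC had a log2 fold change of -0.25 (edgeR adjusted p = 0.0159) and so fell short of the fold threshold, and MCL1, an anti-apoptotic protein, had 0.12 and was not called.

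Among these target genes the BCL6 call was lost in DESeq2 (adjusted p = 0.133), with scaling by library size only (edgeR adjusted p = 0.0531), without sgRNA Ctrl replicate 2 (0.150) and without sgNPM1A replicate 1 (0.136) or 2 (0.0985). ID1 had an edgeR adjusted p of 0.0732 without sgNPM1A replicate 2. JUNB had a log2 fold change of -0.30 without sgRNA Ctrl replicate 2 and of -0.28 without sgNPM1A replicate 2.

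Of the 14 target genes of STAT6 and STAT4, 13 were found and 8 tested, with 2 higher, 2 lower and a median of -0.02 (10.5% higher and 10.3% lower over all tested genes). FCER2, the low-affinity IgE receptor induced by IL-4, rose from 0.275 and 0.270 CPM to 1.58 and 1.22 CPM, a log2 fold change of 2.34 (edgeR adjusted p = 0.000775). CD209, a lectin of dendritic cells and macrophages, was higher by a log2 fold change of 0.96 (edgeR adjusted p = 0.0168). IL18RAP and IL18R1, the chains of the IL-18 receptor, were lower at log2 fold changes of -2.57 and -1.80 (edgeR adjusted p = 0.00224 and 0.00648), from about 1 CPM. With sgNPM1A they had 3 and 7, and 6 and 10 counts, so both passed the count filter only through the controls. FCER2, with 7 counts in each control library, passed it only through sgNPM1A. With at least 10 counts required in every library, 1 gene of this list was called higher and 0 lower. IL4R and TGM2, which were not called, had log2 fold changes of 0.22 and -0.24. The CD209 call was lost in DESeq2 (adjusted p = 0.0788), without sgRNA Ctrl replicate 1 (edgeR adjusted p = 0.0836) and without sgNPM1A replicate 2 (0.186), and the IL18R1 call without sgRNA Ctrl replicate 1 (0.0535) or sgNPM1A replicate 1 (0.0629).

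Of 13 adapters and cofactors 12 were tested, 0 higher and 1 lower, with a median log2 fold change of -0.12, beside 10.5% higher and 10.3% lower of all tested genes. STAM2, an adapter that binds JAK2 and JAK3, had 13.5 and 12.4 CPM with sgRNA Ctrl and 9.58 and 8.50 CPM with sgNPM1A, at a log2 fold change of -0.52 (edgeR adjusted p = 0.00923). Without sgNPM1A replicate 2 it was -0.43 (edgeR adjusted p = 0.0918). DESeq2 and limma likewise called 0 adapters higher and 1 lower, and the number called lower varied when 1 library was left out. GRB2 and PTPN11, which link these receptors to the RAS pathway and were the most abundant genes of the list not called, had log2 fold changes of 0.10 and -0.04.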

How the data were processed

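The authors mapped paired-end reads with STAR to hg38, per the labels and the methods, and deposited unnormalized read counts by Ensembl identifier for 2 sgRNA Ctrl and 2 sgNPM1A libraries, 4 in all. The counting program, its strand setting and the annotation release are not given in the sources used here. Replicates are named biological, without saying from which cultures, and p-values measure only the spread between these libraries.

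Genes were tested with edgeR 4.0.16 in R 4.3.3: filterByExpr by group (minimum count 10), TMM and a robust two-sided quasi-likelihood F test. Benjamini-Hochberg adjustment was over 15718 genes. The same fit was run on simulated counts with far fewer changed genes than were called here, and its results are not given. Calls needed an adjusted p under 0.05 and a log2 fold change of at least 0.32 in size. The count floor covers counting error only. SE values come from the edgeR fit and include its estimate of the spread between libraries, and SD bars show the spread between the libraries of a condition. Levels between genes are CPM per kilobase of the MANE transcript. Positions, promoters and names are from RefSeq GRCh38.p14, and shared words and exons from a GENCODE annotation.

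Members and lists were chosen with earlier results of these data known. The text names all members, up to 6 called genes per list and direction by adjusted p, up to the 2 most abundant genes not called, NPM1, and the 3 genes nearest in pattern to the called member of smallest adjusted p. RSAD2, IRF9, IL2RG, IL21R, LYZ, IFIT1, IFIT2, IFI44L and the receptors and markers with no count are named outside this rule, after their values were seen.

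Alternatives were DESeq2 1.42.0, RLE size factors, scaling by library size only, limma-trend (limma 3.58.1) on quantile-normalized log2 CPM, no filter, at least 10 counts in every library, no fold threshold, the replicate block, the crossed block (added after seeing the data) and leaving out each library.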

Additional observations from a re-analysis of the deposited data

How the results depend on the processing

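Over 12 alternatives for each of the 8 tested members (96 values), which include the crossed block added after seeing the data and leave out the setting with no fold threshold, 90 kept direction and side of the threshold, 4 lost the call and 2 changed sign. The sign changes were both of JAK1, whose log2 fold change lay between -0.112 and 0.0590 when 1 library was left out, at 0.0139 without sgRNA Ctrl replicate 1 and 0.0590 without sgNPM1A replicate 1. The lost calls were JAK2, JAK3 (under 2 omissions) and STAT5B, each when 1 library was left out. Leaving out a library gave between 3 and 4 members called higher and between 0 and 1 called lower, with 0 without sgRNA Ctrl replicate 1 or sgNPM1A replicate 1. With no fold threshold 2 members were lower, since STAT6 then counted. A lone library was assumed to vary like the other condition.

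Libraries are numbered 1 and 2 in both conditions, but same-numbered libraries did not deviate together (correlation -0.13 over 15718 genes), so the numbers were not taken as pairs. Under the replicate block, edgeR called 1637 of all tested genes higher and 1604 lower (1653 and 1619 without it), and 4 members were higher and 1 lower. With the pairing crossed, an alternative added after seeing the data, 1955 genes were higher and 1918 lower, and 4 members were higher and 1 lower. Of the 42 pathway calls, DESeq2 kept 37, the filter of at least 10 counts 35 and the omissions of 1 library between 31 and 36, with 0 changes of sign. Scaling by library size only moved the median log2 fold change of all genes to -0.04. Depth limits STAT4, STAT5A and JAK3 most.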
